A study of Mus musculus with 23 samples.

Results

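The 10 genes described here (Prox1, C1ql2, Dsp, Calb1, Trpc6, Zbtb20, Ahcyl2, Stxbp6, Plk5 and Dock10) are enriched in granule cells of the dentate gyrus. They were taken by gene symbol, with earlier results of these data known, and they are 10 of the 37173 genes in the count table of the study. All 10 passed the filter on low counts and were among the 19423 genes tested. Granule cells are the principal excitatory neurons of the dentate gyrus, where they receive the perforant path from the entorhinal cortex and send mossy fibres to CA3. New granule cells are added through adult life in mice, and a low level of the calcium buffer calbindin in granule cells is a known feature of several mouse models with mutant APP.

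Polyadenylated RNA was sequenced from both hippocampi of 23 mice of about 5 months, in 4 genotypes. All alleles were homozygous. AppNLGF_p16KO mice (n = 6) combined the App knock-in AppNLGF with loss of p16, AppNLGF mice (n = 5) carried the knock-in alone, p16KO mice (n = 6) lacked p16 alone, and WT mice (n = 6) carried neither. The knock-in places familial Alzheimer mutations and a humanised amyloid-beta sequence in the mouse App gene itself, so App keeps its own promoter and cell types. The p16 protein, encoded by Cdkn2a, blocks the kinases that cyclin D activates. Which part of Cdkn2a is missing is not given in the sources used here, and neither are strain, sex or batch. Libraries keep the numbers 1 to 23 of the labels, and each was taken as 1 mouse.

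Total counts ran from 48577677 to 59486545 in AppNLGF_p16KO, from 40693561 to 56973131 in AppNLGF, from 45449180 to 61178839 in p16KO and from 54595296 to 58715671 in WT. Cdkn2a was near the floor of detection, with 24 reads in all AppNLGF_p16KO libraries together, 25 in AppNLGF, 4 in p16KO and 17 in WT, so the p16 labels could not be checked by its reads and the groups below are the libraries labelled so. Xist exceeded the Y-linked genes in 3 of 6, 2 of 5, 3 of 6 and 3 of 6 libraries in the same order of genotypes. Library AppNLGF_p16KO 21 stood apart in several cell type lists: its 6 oligodendrocyte genes summed to 8069 CPM (counts per 1000000 counts of the library), and the highest of any other genotype was 6132 CPM. Calls of the 10 genes that changed without it, or without library 23 of the same genotype, are named beside the result.

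No granule cell gene passed the threshold of an adjusted p of 0.05 in any of the 8 comparisons by edgeR, the main test. The nearest was Prox1, the transcription factor that specifies granule cell identity, in AppNLGF_p16KO against WT (log2 fold change -0.36 ± 0.12 SE, adjusted p = 0.0559). In that comparison Prox1, Zbtb20, Dsp and Dock10 had fold changes of 0.779, 0.724, 0.532 and 0.771, while the log2 fold changes of C1ql2, Calb1 and Stxbp6 were 0.09, 0.02 and -0.02. From library to library, within genotypes, the members fell into sets that varied together: Prox1 with Dsp, Zbtb20 and Dock10, and C1ql2 with Trpc6 and Stxbp6. The sets were seen in these data and are a description.

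Every member was read in every library, from 340 reads of Dsp in AppNLGF_p16KO 19 upwards. Genes were compared roughly, by the mean over 23 libraries in CPM per kilobase of exon. The length was the union of all annotated exons, from 2000 bases for C1ql2 to 30730 for Zbtb20. It is not that of the transcripts in use, so the order is approximate. On this scale C1ql2 stood at 34.7 and Calb1 at 33.4. Stxbp6 followed at 24.8, Ahcyl2 at 17.8, Prox1 at 11.4 and Zbtb20 at 9.61. The lowest were Plk5 at 7.75, Dock10 at 5.28, Trpc6 at 4.82 and Dsp at 2.46. With SDs over libraries of 7.95 for C1ql2 and 4.49 for Calb1, these neighbours in the order did not differ beyond their spread, nor did Prox1 (SD 1.91) and Zbtb20 (SD 2.15), Zbtb20 and Plk5 (SD 1.36), or Dock10 (SD 0.975) and Trpc6 (SD 0.803). All levels that follow are CPM of the whole library, which compare samples and not genes. In bulk tissue fewer granule cells and less RNA per granule cell cannot be told apart.

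**Figure D1:**
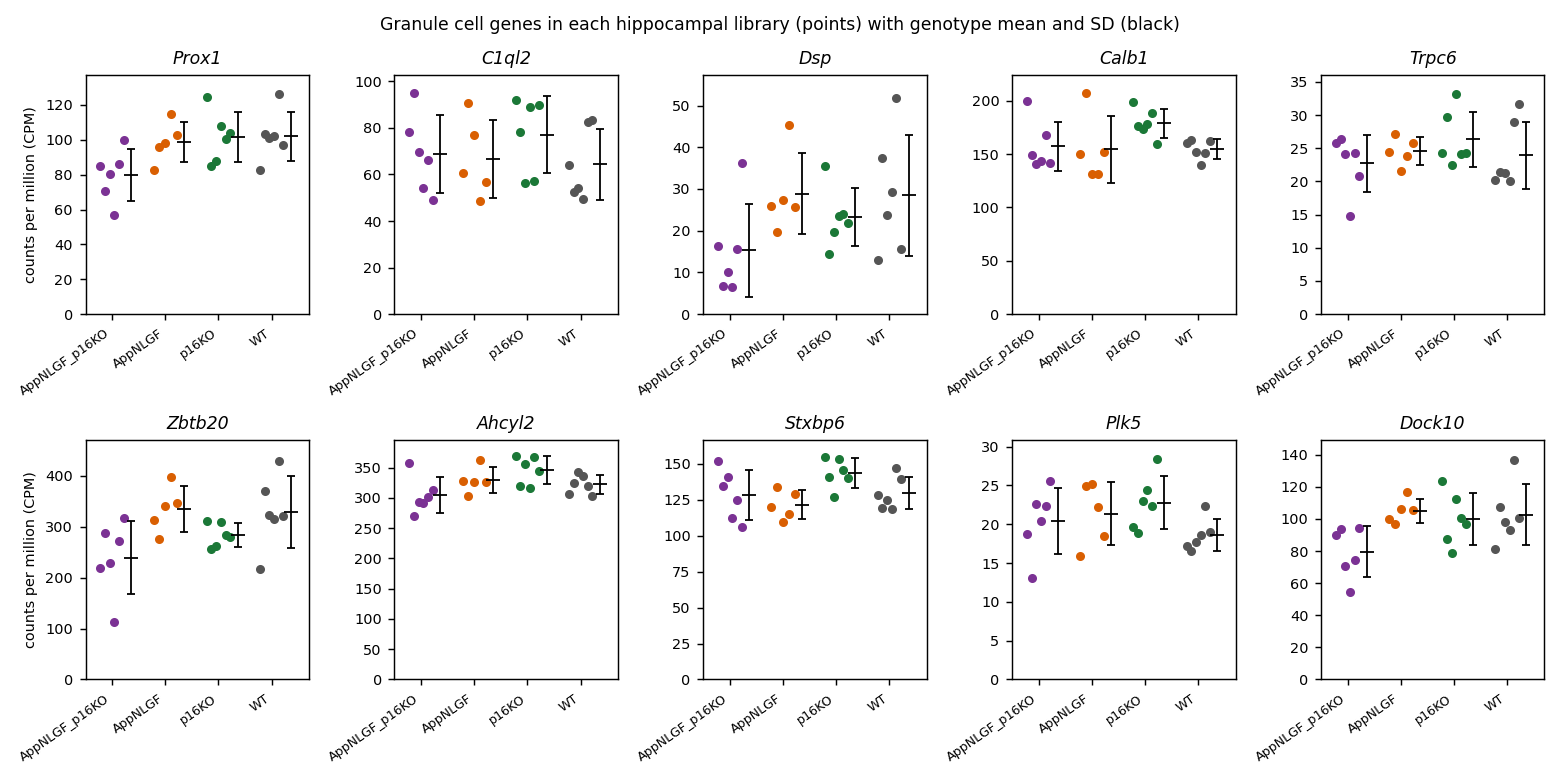
Level in CPM of each granule cell gene in each of the 23 libraries (points), by genotype, with the mean and SD of the genotype in black beside the points. Prox1, Zbtb20, Dsp, Dock10, Trpc6 and Ahcyl2 had their lowest mean in AppNLGF_p16KO. The genotypes overlapped for all 10 genes, except Dock10 between AppNLGF_p16KO and AppNLGF.

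Prox1 (ENSMUSG00000010175) spans 190118035 to 190170714 on the minus strand of chromosome 1 (GRCm38). It encodes the homeobox factor that directs and maintains granule cell fate. In AppNLGF_p16KO its lowest, median and highest levels were 56.7, 82.6 and 100.1 CPM. The AppNLGF libraries 13 to 17 held 82.5, 96.0, 97.9, 114.7 and 102.9 CPM. In p16KO the lowest, median and highest were 85.0, 102.0 and 124.4 CPM, and in WT they were 82.7, 101.4 and 126.1 CPM. All 6 AppNLGF_p16KO libraries lay below the WT mean, but 3 of them lay above the lowest WT library, so the genotypes overlapped. The means were 79.8 ± 14.8 in AppNLGF_p16KO, 98.8 ± 11.6 in AppNLGF, 101.5 ± 14.4 in p16KO and 102.0 ± 14.0 CPM in WT (SD). An antisense gene, Prox1os, shares exonic sequence with Prox1 and held 5.24% as many reads, and the strand setting of the counting is not given in the sources used here.

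Zbtb20 (ENSMUSG00000022708), on the plus strand of chromosome 16 from 42875881 to 43642602, encodes a zinc finger repressor that patterns hippocampal neurons. Its lowest, median and highest levels in AppNLGF_p16KO were 112, 250 and 318 CPM. AppNLGF libraries 13 to 17 held 314, 276, 339.95, 398 and 347 CPM. The p16KO libraries had 257, 281 and 312 CPM as lowest, median and highest, and the WT libraries 216, 323 and 428 CPM. Library AppNLGF_p16KO 21 was far below all others, at the 112 CPM given, and the lowest WT library, WT 1, lay below 5 of the 6 AppNLGF_p16KO libraries. Group means were 239 ± 72.3 in AppNLGF_p16KO, 335 ± 45.2 in AppNLGF, 284 ± 23.0 in p16KO and 329 ± 70.1 CPM in WT (SD).

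Dsp (ENSMUSG00000054889; chromosome 13, 38151294 to 38198577, plus strand) encodes desmoplakin, which ties desmosomes to intermediate filaments and in the mouse hippocampus marks granule cells. It was the most variable member. The AppNLGF_p16KO libraries 18 to 23 held 16.3, 6.73, 10.2, 6.50, 15.7 and 36.1 CPM. AppNLGF libraries 13 to 17 held 26.0, 19.7, 27.5, 45.4 and 25.6 CPM. In p16KO the lowest, median and highest levels were 14.5, 22.8 and 35.6 CPM, and in WT 12.9, 26.6 and 51.8 CPM. All AppNLGF_p16KO libraries but 23 were below every AppNLGF library, and library 23 was above 4 of the 5. Its SD within genotypes was 0.69 on the log2 scale, above that of 94.7% of the genes tested, whose median was 0.19.

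Dock10 (ENSMUSG00000038608; chromosome 1, 80501073 to 80758527, minus strand) encodes an exchange factor for the small GTPases Cdc42 and Rac, which shape dendritic spines. The AppNLGF_p16KO libraries 18 to 23 held 89.8, 94.1, 70.9, 54.5, 74.2 and 94.3 CPM. AppNLGF libraries 13 to 17 held 99.9, 97.2, 105.9, 116.7 and 105.3 CPM. The p16KO libraries had 79.0, 98.9 and 124 CPM as lowest, median and highest, and the WT libraries 81.0, 99.3 and 137 CPM. Every AppNLGF_p16KO library lay below every AppNLGF library, which was so for 0.597% of all genes tested, and the AppNLGF_p16KO libraries overlapped with p16KO and with WT.

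Plk5 (ENSMUSG00000035486; chromosome 10, 80356459 to 80365489, plus strand), a polo-like kinase family gene expressed in brain, was at percentile 58.6 of the genes tested in abundance. It averaged 20.4 ± 4.25 in AppNLGF_p16KO, 21.4 ± 4.07 in AppNLGF, 22.8 ± 3.44 in p16KO and 18.6 ± 2.08 CPM in WT (SD). Its p16KO libraries ran from 18.9 to 28.4 CPM and its WT libraries from 16.5 to 22.4 CPM, and all 6 p16KO libraries were above the WT mean.

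Calb1, Trpc6 and Ahcyl2 belong to calcium handling. Calb1 (ENSMUSG00000028222; chromosome 4, 15881264 to 15908064, plus strand), the calcium buffer calbindin of granule cells, had a lowest, median and highest level of 141, 146 and 199.8 CPM in AppNLGF_p16KO. AppNLGF libraries 13 to 17 held 150.4, 208, 131, 132 and 152 CPM. In p16KO the values were 159, 177 and 199 CPM, against 139.9, 156 and 164 CPM in WT. All 6 p16KO libraries lay above the WT mean, and 2 single libraries, AppNLGF 14 and AppNLGF_p16KO 18, stood above the rest of their genotypes. Trpc6 (ENSMUSG00000031997; chromosome 9, 8544142 to 8680741, plus strand), a receptor-operated cation channel, averaged 22.7 ± 4.33 in AppNLGF_p16KO, 24.6 ± 2.08 in AppNLGF, 26.4 ± 4.13 in p16KO and 24.0 ± 5.03 CPM in WT (SD). Ahcyl2 (ENSMUSG00000029772; chromosome 6, 29768011 to 29912310, plus strand), a relative of the IP3 receptor regulator IRBIT, averaged 304 ± 29.8, 329 ± 21.0, 345 ± 22.9 and 322 ± 16.1 CPM in the same order and was the steadiest member (SD within genotypes 0.10 on the log2 scale, above that of 16.7% of the genes tested).

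At the synapse, C1ql2 (ENSMUSG00000036907; chromosome 1, 120340582 to 120343174, plus strand) encodes a C1q-like protein secreted by mossy fibres that recruits kainate receptors in CA3. Its levels ran from 49.1 to 94.8 CPM in AppNLGF_p16KO, from 48.8 to 90.6 in AppNLGF, from 56.4 to 92.1 in p16KO and from 49.4 to 83.4 CPM in WT, so each genotype held both low and high libraries. Stxbp6 (ENSMUSG00000046314; chromosome 12, 44852484 to 45074709, minus strand) encodes amisyn, which binds syntaxin and regulates vesicle fusion. It ran from 106 to 152 CPM in AppNLGF_p16KO, from 109 to 134 in AppNLGF, from 127 to 155 in p16KO and from 118 to 147 CPM in WT, with the genotypes again overlapping.

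Loss of p16 where App is wild type was read from p16KO against WT. None of the 10 members passed the adjusted threshold, as against 0.309% of all genes tested (60 genes), and by DESeq2 0 members and 2.62% of all genes did. At an unadjusted p of 0.05, 2 members passed, both higher in p16KO, where 15.8% of all genes passed and 9.24% were higher. These were Calb1 (log2 fold change 0.21 ± 0.10 SE, adjusted p = 0.299) and Plk5 (0.29 ± 0.14, adjusted p = 0.304). Prox1 stood at -0.01 ± 0.12, with a 95% interval of -0.26 to 0.23. That of Dsp was far wider, -1.13 to 0.52.

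The App knock-in where p16 is present was read from AppNLGF against WT. Of the 10 members, 0 passed the adjusted threshold, beside 0.319% of all genes (62 genes), and 0 passed an unadjusted p of 0.05, beside 8.54% of all genes (by DESeq2, 0 members and 0.789% of all genes passed after adjustment). Calb1 averaged 154 ± 31.3 CPM in AppNLGF and 155 ± 9.02 CPM in WT (SD), a log2 fold change of -0.02 with a 95% interval of -0.22 to 0.19. Without library AppNLGF 14, the highest of the genotype, it was -0.14 (adjusted p = 0.757). The log2 fold changes of the members ran from -0.11 for Stxbp6 to 0.19 for Plk5, with a median of 0.01, and the median of all genes tested was 0.00.

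Loss of p16 on the App knock-in was read from AppNLGF_p16KO against AppNLGF. No member passed the adjusted threshold, against 0.0309% of all genes (6 genes). At an unadjusted p of 0.05, 4 members passed, all lower, where 23.5% of all genes passed and 10.8% were lower. DESeq2 called 1 member, Dock10 (adjusted p = 0.0477), and 8.32% of the genes it adjusted. Dock10 had a log2 fold change of -0.39 ± 0.14 SE (adjusted p = 0.127), with 6 of 6 libraries below the AppNLGF mean. Zbtb20 had -0.48 ± 0.19 (adjusted p = 0.149; 6 of 6 below the AppNLGF mean), Prox1 -0.30 ± 0.12 (adjusted p = 0.158; 5 of 6) and Dsp -0.91 ± 0.42 (adjusted p = 0.196; 5 of 6). C1ql2, Calb1 and Stxbp6 had log2 fold changes of 0.05, 0.03 and 0.09. Without library AppNLGF_p16KO 23 all 4 passed by edgeR, with Dsp at -1.37 (adjusted p = 0.0164), Dock10 at 0.0334, Prox1 at 0.0351 and Zbtb20 at 0.0395 as adjusted p, but 4156 of all genes were then called. Without library 21 the adjusted p-values were 0.294 for Dock10 and Zbtb20, 0.345 for Prox1 and 0.372 for Dsp.

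The App knock-in where p16 is lost was read from AppNLGF_p16KO against p16KO. All 10 members had negative log2 fold changes, with a median of -0.20, where 48.4% of all genes tested were negative with a median of 0.01. None passed the adjusted threshold, against 0.247% of all genes (48 genes), and by DESeq2 0 members and 0.521% of all genes did. At an unadjusted p of 0.05, 4 members passed, all lower, where 7.89% of all genes passed and 3.30% were lower. Ahcyl2 stood at -0.18 ± 0.06 SE (adjusted p = 0.369), Prox1 at -0.35 ± 0.12 (adjusted p = 0.401), Dock10 at -0.33 ± 0.13 (adjusted p = 0.538) and Stxbp6 at -0.16 ± 0.08 (adjusted p = 0.628). Prox1 and Dock10 were below the p16KO mean in 6 of 6 AppNLGF_p16KO libraries, and Ahcyl2 and Stxbp6 in 5 of 6. Sets of members varied together from library to library, so the 10 negative signs are not separate observations.

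Both alleles together were read from AppNLGF_p16KO against WT, which shares libraries with the comparisons above. Here 9.56% of all genes tested (1857 genes) passed the adjusted threshold and 0 of the 10 members did. At an unadjusted p of 0.05, 4 members passed, all lower, where 27.8% of all genes passed and 13.1% were lower. They were Prox1, Dock10 (-0.38 ± 0.13 SE, adjusted p = 0.0711), Zbtb20 (-0.47 ± 0.18, adjusted p = 0.0992) and Dsp (-0.91 ± 0.40, adjusted p = 0.145). DESeq2 called 3 of them, Prox1 (adjusted p = 0.0209), Dock10 (adjusted p = 0.0264) and Zbtb20 (adjusted p = 0.0327), where it called 17.6% of the genes it adjusted. By edgeR, 4 passed without library AppNLGF_p16KO 23, 3 without WT 1 and 1 (Prox1, adjusted p = 0.0478) without p16KO 7, and 0 passed without library 21, alone or with library 22. The calls over all genes moved too, from 1857 with all libraries to 4456 without library 23 and 2959 without WT 1. They were 456 without library 21 and 150 without libraries 21 and 22.

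**Figure D2:**
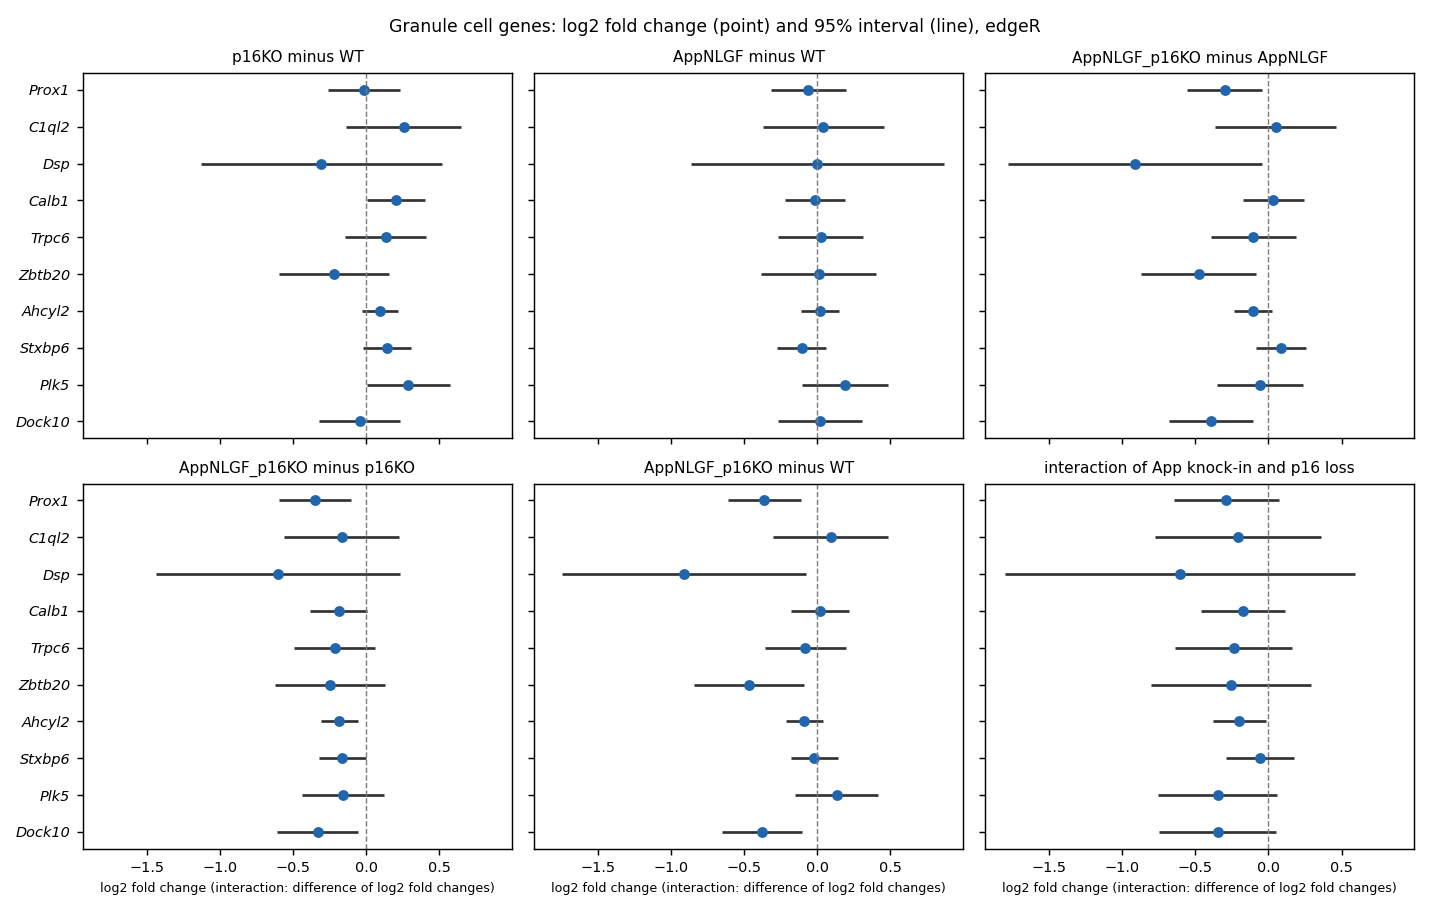
Log2 fold change (point) and 95% interval (line) of each granule cell gene by edgeR in 5 comparisons of genotypes and, in the last panel, the interaction. The dashed line marks no difference. Intervals of Prox1, Dsp, Zbtb20 and Dock10 lay below 0 in AppNLGF_p16KO against AppNLGF and against WT, before adjustment over all genes, and those of Dsp were the widest.

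The interaction asks whether the knock-in and the loss of p16 add up on the log scale. It called 0 genes of all those tested (0.00%) and 0 members by edgeR, and 1 member, Ahcyl2, passed an unadjusted p of 0.05, where 5.26% of all genes passed and 2.13% were below 0. By DESeq2, 0 members and 1 gene of all (0.00515%) passed after adjustment. Ahcyl2 stood at -0.20 ± 0.09 SE (adjusted p = 0.897). All 10 members had a negative interaction, with a median of -0.25, where 49.1% of all genes were negative, but the 95% intervals of the other 9 held 0. Here too the 10 signs are not separate observations.

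Averaged over both App genotypes, loss of p16 called 13.0% of all genes and 0 members. Zbtb20 (-0.35 ± 0.13 SE, adjusted p = 0.0768), Dock10 (-0.22 ± 0.10, adjusted p = 0.125) and Dsp (-0.61 ± 0.29, adjusted p = 0.156) were lower at an unadjusted p of 0.05, where 31.0% of all genes passed and 14.7% were lower. Zbtb20 passed by DESeq2 (adjusted p = 0.0247, among 20.6% of the genes it adjusted) and, by edgeR, with a term for sex (adjusted p = 0.0476), without WT 1 (adjusted p = 0.0296) and without AppNLGF_p16KO 23 (adjusted p = 0.0295), where Dsp passed too (adjusted p = 0.0191). Without AppNLGF_p16KO 23 the calls over all genes rose to 5117, from 2522 with all libraries. Averaged over both p16 genotypes, the knock-in called 0.793% of all genes and 0 members. Stxbp6 (-0.14 ± 0.06, adjusted p = 0.383) and Prox1 (-0.20 ± 0.09, adjusted p = 0.392) were lower at an unadjusted p of 0.05, where 10.4% of all genes passed and 4.70% were lower. By DESeq2, 0 members and 1.47% of all genes passed after adjustment.

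Within genotypes, pairs of members were compared over the 23 libraries after the genotype mean was removed. Of 45 pairs, 34 had a positive correlation and 11 passed an adjusted p of 0.05 (permutation within genotypes, two-sided, adjusted over the 45), all of them positive and all also by rank. The closest pair was Prox1 and Dsp (Pearson r = 0.87, permutation p = 1e-05, the smallest the permutations can give, adjusted p = 0.000225, Spearman rho = 0.86, adjusted p = 0.00045). Within the genotypes their r was 0.90 in AppNLGF_p16KO, 0.63 in AppNLGF, 0.94 in p16KO and 0.92 in WT, and without the 2 libraries farthest in Prox1 it was 0.83. Zbtb20 and Dock10 reached r = 0.84 (adjusted permutation p = 0.000225, rho = 0.80) and 0.75 without the 2 libraries farthest in Zbtb20. Prox1 reached r = 0.82 with Dock10 (rho = 0.73) and 0.80 with Zbtb20 (rho = 0.77), and both kept 0.74 and 0.68 without the 2 farthest libraries. Dsp reached r = 0.70 with Zbtb20, 0.68 with Dock10 and 0.62 with Ahcyl2, whose rho were 0.67, 0.67 and 0.70.

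A second set joined C1ql2, Trpc6 and Stxbp6. Trpc6 and Stxbp6 had r = 0.72 (rho = 0.70, adjusted permutation p = 0.00351), C1ql2 and Stxbp6 r = 0.69 (rho = 0.69, adjusted permutation p = 0.00742), and C1ql2 and Trpc6 r = 0.63 (rho = 0.65, adjusted permutation p = 0.0147). Without the 2 farthest libraries these became 0.72, 0.65 and 0.61. Calb1 and Stxbp6 had r = 0.57 (rho = 0.58, adjusted permutation p = 0.0339), which became 0.41 without libraries AppNLGF 14 and AppNLGF_p16KO 18. No pair between the sets passed the threshold, which follows from how the sets were drawn, and the sets were not wholly apart. The r ran from -0.26 for C1ql2 and Dsp (rho = -0.24) to 0.55 for Trpc6 and Dock10 (rho = 0.42, adjusted permutation p = 0.0929). Trpc6 and Zbtb20 had r = 0.54 (rho = 0.29), and C1ql2 and Prox1 0.09 (rho = 0.00). Plk5 passed with no other member.

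**Figure D3:**
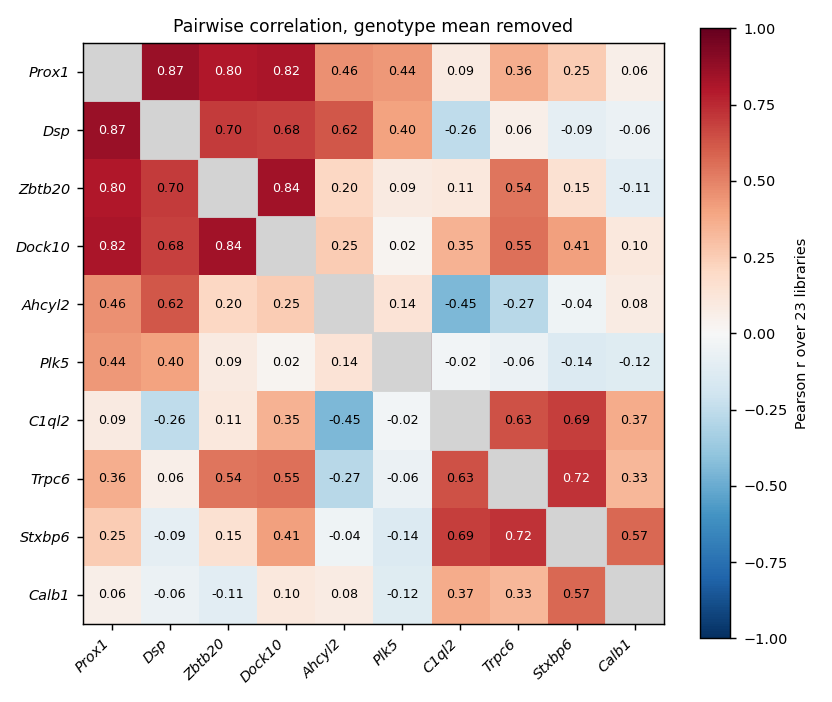
Pearson correlation of each pair of granule cell genes over 23 libraries, on log2 CPM with the genotype mean removed (colour and number). Prox1, Dsp, Zbtb20 and Dock10 form a block from 0.68 to 0.87, and C1ql2, Trpc6 and Stxbp6 one from 0.63 to 0.72.

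The libraries at the ends of these relations can be named. The relations did not rest on AppNLGF_p16KO 21 alone. Without it, but with the genotype means of all libraries kept, r was 0.86 for Prox1 and Dsp, 0.79 for Zbtb20 and Dock10 and 0.70 for Trpc6 and Stxbp6. Within AppNLGF, p16KO and WT, which do not hold that library, r was 0.965, 0.951 and 0.93 for Zbtb20 and Dock10. For Trpc6 and Stxbp6 it was 0.981, 0.502 and 0.861 in the same order. AppNLGF_p16KO 21 was the lowest of all 23 libraries in Prox1, Dsp, Trpc6, Zbtb20 and Dock10, and 1 of its 10 members stood above the mean of its genotype. WT 5 was the highest in Prox1, Dsp, Zbtb20 and Dock10, with 9 of 10 members above the WT mean. AppNLGF_p16KO 23 showed the sets apart: it was the highest of its genotype in Prox1, Dsp, Zbtb20, Plk5 and Dock10 and the lowest in C1ql2 and Stxbp6. AppNLGF 16 likewise was the highest of its genotype in Prox1, Dsp, Zbtb20, Ahcyl2 and Dock10 and the lowest in C1ql2.

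**Figure D4:**
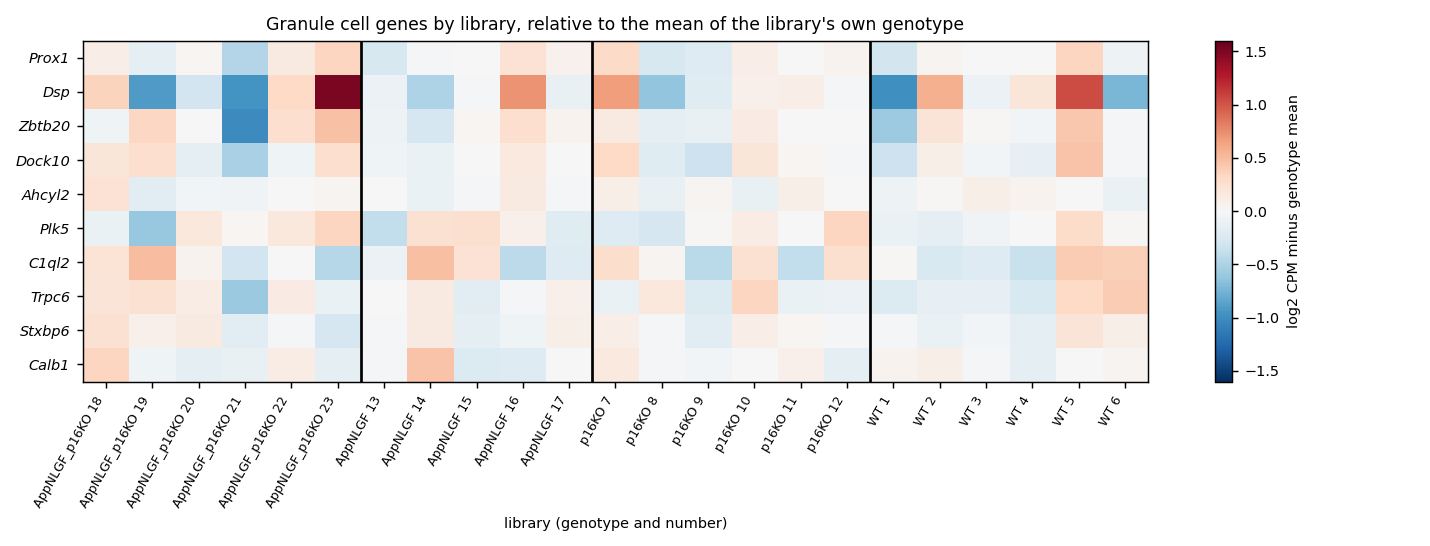
Log2 CPM of each granule cell gene in each library minus the mean of the library's own genotype (colour; black lines part the genotypes). Dsp is far above its genotype mean in AppNLGF_p16KO 23, while C1ql2 and Stxbp6 of the same library are below theirs, and in AppNLGF_p16KO 21 Prox1, Dsp, Zbtb20 and Dock10 are all below.

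Because the sets are of genes that varied together, the 250 bases before a start site of each are shown, from RefSeq tables on GRCm38.p6, read 5′ to 3′ on the gene's strand. Capitals mark the GC box, GGGCGG on either strand, a motif bound by Sp factors. Of the 10 members 9 were in the table, and Calb1 was not. For Prox1 and Dock10 the table holds a second start as well, and the first listed is shown. The first set comprises Prox1 (chr1:190170828-190171077, minus strand), Dsp (chr13:38151044-38151293, plus), Dock10 (chr1:80758554-80758803, minus) and Zbtb20 (chr16:43247034-43247283, plus, a start inside the gene's span), and the second C1ql2 (chr1:120340332-120340581, plus), Trpc6 (chr9:8543892-8544141, plus) and Stxbp6 (chr12:45074484-45074733, minus).
Prox1: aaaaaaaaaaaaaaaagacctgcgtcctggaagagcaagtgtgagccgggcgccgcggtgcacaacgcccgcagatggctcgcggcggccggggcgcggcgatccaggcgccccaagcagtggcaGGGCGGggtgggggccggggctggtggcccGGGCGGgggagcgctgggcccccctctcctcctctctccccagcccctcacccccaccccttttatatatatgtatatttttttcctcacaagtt
Dsp: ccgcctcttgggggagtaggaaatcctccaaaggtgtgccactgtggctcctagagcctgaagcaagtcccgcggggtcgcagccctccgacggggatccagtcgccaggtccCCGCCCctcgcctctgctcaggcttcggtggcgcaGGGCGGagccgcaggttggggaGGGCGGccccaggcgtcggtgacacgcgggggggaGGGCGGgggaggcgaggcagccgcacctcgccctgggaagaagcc
Dock10: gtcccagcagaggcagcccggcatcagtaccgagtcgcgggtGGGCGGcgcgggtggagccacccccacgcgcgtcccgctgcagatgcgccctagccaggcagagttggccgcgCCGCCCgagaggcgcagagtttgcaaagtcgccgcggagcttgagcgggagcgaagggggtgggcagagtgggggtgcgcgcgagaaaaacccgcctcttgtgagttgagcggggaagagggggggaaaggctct
Zbtb20: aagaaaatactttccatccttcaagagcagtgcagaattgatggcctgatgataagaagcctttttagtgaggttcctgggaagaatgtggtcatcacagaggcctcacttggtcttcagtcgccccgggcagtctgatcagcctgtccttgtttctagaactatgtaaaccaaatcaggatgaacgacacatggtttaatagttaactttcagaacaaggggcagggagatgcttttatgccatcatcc
C1ql2: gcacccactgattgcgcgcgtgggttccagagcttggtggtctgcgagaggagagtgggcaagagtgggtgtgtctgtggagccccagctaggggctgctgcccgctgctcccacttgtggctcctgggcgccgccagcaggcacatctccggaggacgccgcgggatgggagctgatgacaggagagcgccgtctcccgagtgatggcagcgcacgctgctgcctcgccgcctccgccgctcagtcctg
Trpc6: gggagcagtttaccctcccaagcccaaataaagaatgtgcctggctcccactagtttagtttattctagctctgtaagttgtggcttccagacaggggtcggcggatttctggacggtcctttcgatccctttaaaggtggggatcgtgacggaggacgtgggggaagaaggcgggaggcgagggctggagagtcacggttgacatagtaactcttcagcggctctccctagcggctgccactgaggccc
Stxbp6: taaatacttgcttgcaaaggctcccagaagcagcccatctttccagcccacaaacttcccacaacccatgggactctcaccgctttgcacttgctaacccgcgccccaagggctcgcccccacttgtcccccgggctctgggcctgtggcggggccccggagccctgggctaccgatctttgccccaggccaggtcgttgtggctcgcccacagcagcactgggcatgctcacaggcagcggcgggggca

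The GC box occurred 2 times in the Prox1 sequence, 4 times in Dsp, 2 times in Dock10 and 0 times in Zbtb20, C1ql2, Trpc6 and Stxbp6, and 32.7% of 32851 RefSeq promoters of that length held at least 1. The cyclic AMP response element TGACGTCA (1.55% of all promoters) and the AP-1 motif TGANTCA (6.75%) were in none of these 7. The E-box CANNTG, which 66.2% of all promoters hold, occurred 2 times in Prox1, Zbtb20 and Stxbp6, 1 time in Dock10 and C1ql2 and 0 times in Dsp and Trpc6. G and C made up 64.8% of the Prox1 window, 72.4% of Dsp, 70.4% of Dock10 and 44.8% of Zbtb20, and 68.8% of C1ql2, 56.4% of Trpc6 and 65.2% of Stxbp6, beside a median of 52.4% over all promoters. The second start of Prox1, not shown, held 1 GC box and 0 E-boxes with 56.0% G and C, and that of Dock10 held 0 GC boxes and 3 E-boxes with 43.2%. All motifs were searched on both strands and overlapping matches were counted. A match here describes letters and not a site in use.

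Other measures of the libraries moved with the first set. Of 180 relations between the 10 members and 18 measures, 16 passed (permutation within genotypes, 23 libraries, adjusted over the 180). The nuclear RNA Malat1 had r = 0.84 with Dock10 (rho = 0.88, adjusted permutation p = 9e-04) and 0.77 without the 2 libraries farthest in Malat1. Its r was 0.81 with Prox1 (rho = 0.81), 0.79 with Dsp (rho = 0.76) and 0.65 with Zbtb20 (rho = 0.74), and without those libraries 0.73, 0.68 and 0.54. Malat1 itself ran from 321 to 556 CPM in AppNLGF_p16KO, from 447 to 684 in AppNLGF, from 338 to 542 in p16KO and from 448 to 790 CPM in WT, with library 21 the lowest and WT 5 the highest. Its part in the differences between genotypes was not tested.

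**Figure D5:**
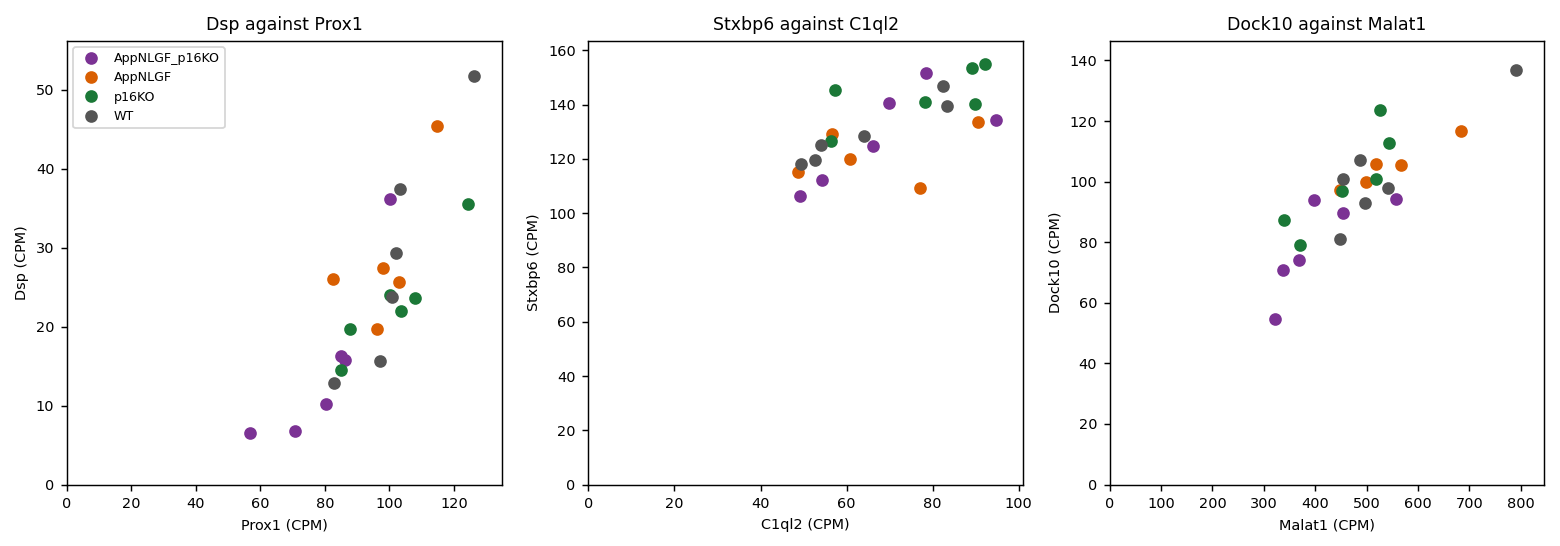
Each point is a library, coloured by genotype, in CPM on both axes: Dsp against Prox1, Stxbp6 against C1ql2 and Dock10 against Malat1. With the genotype mean removed the correlations are 0.87, 0.69 and 0.84, and the AppNLGF_p16KO libraries lie towards the low end in the first and the last panel and across the range in the middle one. Library AppNLGF_p16KO 23 is the exception, with 36.1 CPM of Dsp and 556 CPM of Malat1.

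The sum of the 11 adult neurogenesis genes ran the other way, with r = -0.85 for Prox1 (rho = -0.78) and Dock10 (rho = -0.76), -0.84 for Zbtb20 (rho = -0.77) and -0.74 for Dsp (rho = -0.73), each past the threshold. Without the 2 libraries farthest in the sum these became -0.77 for Prox1, -0.78 for Dock10, -0.84 for Zbtb20 and -0.72 for Dsp. Most of this sum is Tubb3, a neuronal tubulin at 275 CPM that mature neurons also express, while Dcx, the marker of immature neurons, stood at 31.7 CPM. The 6 astrocyte genes had r = -0.75 with Dsp, -0.74 with Prox1 and -0.70 with Zbtb20 (rho = -0.72, -0.73 and -0.57, the last not past the threshold), and -0.62, -0.58 and -0.46 without the 2 farthest libraries. Zbtb20 also passed by Pearson and not by rank with the mossy cell sum (r = -0.76, rho = -0.42) and the granule cell activity sum (r = -0.64, rho = -0.40), which became -0.51 and -0.41 without the 2 libraries farthest in each. Without library AppNLGF_p16KO 21 alone the r of Zbtb20 was -0.54 with the astrocyte sum, -0.52 with the mossy cell sum and -0.45 with the activity sum, and without library 23 alone -0.65, -0.73 and -0.62. Astrocyte sums were 2634 to 3450 CPM in AppNLGF_p16KO, 2556 to 3090 in AppNLGF, 2522 to 2879 in p16KO and 2349 to 2583 CPM in WT. Neurogenesis sums were 367 to 479.8 CPM in AppNLGF_p16KO, 316 to 365 in AppNLGF, 308 to 381 in p16KO and 305 to 384 CPM in WT. Whether these lists bear on the members' levels was not tested.

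A second list of 14 dentate granule genes, all tested, was measured beside the members. It summed to 663, 770.5 and 859 CPM (lowest, median and highest) in AppNLGF_p16KO, 769, 816 and 872 in AppNLGF, 809, 882 and 972 in p16KO and 791, 842 and 999 CPM in WT. No gene of it passed the adjusted threshold in any comparison. The list was chosen with earlier results of these data known. Its genes were read in the same libraries as the members, so the counts below are not separate observations and are a description. All 14 had negative log2 fold changes in AppNLGF_p16KO against p16KO (median -0.24), 12 of 14 against WT (median -0.21) and 10 of 14 against AppNLGF (median -0.14), where 48.4%, 49.9% and 47.9% of all genes tested were negative in the same order of comparisons. At an unadjusted p of 0.05, 7 were lower against p16KO, 5 against WT and 2 against AppNLGF, where 3.30%, 13.1% and 10.8% of all genes were. The most abundant, Synpr, a synaptic vesicle protein of mossy fibres, stood at 0.03 ± 0.09 SE in AppNLGF_p16KO against WT (adjusted p = 0.845). Sema5a, an axon guidance gene of granule cells, stood at -0.23 ± 0.08 (adjusted p = 0.0732). With this sum, Prox1 and Dock10 each had r = 0.80 (rho = 0.76 and 0.75) and Stxbp6 0.67 (rho = 0.65), past the threshold, and 0.69, 0.66 and 0.56 without the 2 libraries farthest in it. The other members did not pass. Their r ran from 0.19 for Plk5 (rho = 0.16, adjusted permutation p = 0.636) to 0.64 for Zbtb20 (rho = 0.59, adjusted permutation p = 0.0586).

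In AppNLGF_p16KO against WT, 9.56% of all genes tested were called and 49.9% were negative, and with the knock-in averaged over both p16 genotypes 0.793% were called. Of 12 activity-regulated genes, 2 fell in AppNLGF_p16KO against WT by edgeR: Egr1 (-0.48 ± 0.11 SE, adjusted p = 0.0118) and the synaptic scaffold gene Homer1 (-0.25 ± 0.08, adjusted p = 0.0414), with 10 of 12 negative. Homer1 also fell with the knock-in averaged over both p16 genotypes (-0.27 ± 0.06, adjusted p = 0.0101). Among 11 neurogenesis genes Tubb3 rose in AppNLGF_p16KO against WT (0.35 ± 0.08, adjusted p = 0.0153), and 7 of the 11 were negative. The astrocyte genes Gfap (0.73 ± 0.09, adjusted p = 2.41e-05) and Aldoc (0.33 ± 0.09, adjusted p = 0.0236) rose in the same comparison, as did the microglia genes C1qa and Tmem119. Gfap and C1qa also rose in AppNLGF against WT (log2 fold changes 0.51 and 0.59, adjusted p = 0.0046 and 0.000504 by edgeR). Gfap rose in AppNLGF_p16KO against p16KO as well (0.53, adjusted p = 0.00304). No CA2 or CA3 list gene passed in any comparison, and of the CA1 list Mpped1 rose in AppNLGF_p16KO against WT (0.18 ± 0.05, adjusted p = 0.0332). With loss of p16 averaged over both App genotypes, 2 of 8 CA1 genes were called higher, where 13.0% of all genes were called. They were Mpped1 (0.13, adjusted p = 0.0263) and Ccn3 (0.25, adjusted p = 0.0435, held in 8 of 23 omissions of 1 library). Of these 8 calls in AppNLGF_p16KO against WT, 3 held without library AppNLGF_p16KO 21 (Egr1, Gfap and C1qa), and all 8 held without library 23. Without library 21 the adjusted p by edgeR was 0.105 for Homer1, 0.0518 for Tubb3, 0.0806 for Aldoc, 0.061 for Tmem119 and 0.0857 for Mpped1. Leaving out WT 5 also ended the calls of those 5 genes, and leaving out WT 2 those of Homer1, Aldoc and Mpped1. Homer1 and Mpped1 lost theirs without WT 4, WT 6 or AppNLGF_p16KO 20 too, Homer1 without WT 1 or AppNLGF_p16KO 18, and Mpped1 without AppNLGF_p16KO 22. Over all omissions of 1 library the highest adjusted p was 0.105 for Homer1 and 0.0962 for Mpped1. The averaged fall of Homer1 held without any 1 library (adjusted p = 0.00383 to 0.0312).

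Genes of the whole table were ranked by their likeness to the mean of the 10 members, each centred on its genotype and divided by its SD, over 23 libraries. The 8 most alike of 19413 other genes were Ppp3ca (r = 0.92, rho = 0.85), the catalytic subunit of calcineurin, then Pwwp2a (0.88, rho = 0.84), Lmo7 (0.88, rho = 0.76), Sphkap (0.87, rho = 0.84), Plppr4 (0.87, rho = 0.75), Onecut2 (0.87, rho = 0.77), Epha7 (0.86, rho = 0.84) and Dgkh (0.85, rho = 0.70). Without the libraries AppNLGF_p16KO 21 and WT 5 their r ran from 0.71 to 0.85, and 5 of the 8 stayed among the first 8. The least alike were Spry4 (r = -0.87, rho = -0.92), Clcn6 (-0.86, rho = -0.76), Prkar1b (-0.86, rho = -0.79) and Camk1 (-0.86, rho = -0.90). Each member is itself part of that mean, which Prox1 followed most closely (r = 0.88, rho = 0.84, and 0.80 without the same libraries). These are descriptions with no test.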

How the data were processed

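Stranded polyA libraries were made from 350 ng of RNA with 12 PCR cycles and read as single ends of 50 bases, per the labels' protocols. The study's design text and the submitters' processing notes name cutadapt 4.2 for trimming to at least 40 bases at a Phred score of 20, Bowtie2 2.3.5 for ribosomal reads, STAR 2.7.10b for alignment to GRCm38 and for counting unique reads, and DESeq2 1.45.3 for the outlier check. The deposited values are raw counts of reads per gene, made by the authors with no normalization. Of 37060 genes shared with GENCODE M21, 36795 had identical coordinates, so positions are GRCm38. Depth was 40693561 to 61178839 counts a library (median 55138908), and without molecular identifiers statements on depth cover counting error only.

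Tests used edgeR 4.0.16 in R 4.3.3: the quasi-likelihood F test, TMM, robust dispersion, filterByExpr with a minimum of 10, 1 model of 4 genotypes and 23 libraries, two-sided. P-values were adjusted by Benjamini and Hochberg's method across all 19423 genes, with 0.05 as the threshold. All p-values of single genes come from it unless DESeq2 1.42.0 is named. CPM are counts per 1000000 counts of the library, and log2 fold changes are TMM-scaled. The procedure was tested on simulated data. Correlations used log2 CPM with a prior count of 2, centred on the genotype, with 100000 permutations of libraries within genotypes. The 29 alternatives were DESeq2, RLE size factors, no count filter, a filter of 15 reads in 3 libraries, a term for sex (read from Xist and Y-linked genes), omission of libraries 21 and 22, and of each library in turn. Correlations without the 2 farthest libraries, or without library 21 or 23, and the alternatives for list genes were added after seeing the data. Such correlations kept the genotype means of all 23 libraries. Only the relations with other measures without library 21 or 23 had the means taken again. Replicates are separate samples per the labels, which do not say whether animals shared a litter.

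Members and the 15 lists of 112 marker genes were chosen with earlier results of these data known, and 1 marker gene is not reported here. All 10 members were named in every comparison. Of lists, called genes or else the most abundant were to be named, and of all other genes the 8 most and 4 least alike. Lists with no result above held few or no calls: in AppNLGF_p16KO against WT these were 1 of 7 mossy cell genes (Gal), 1 of 8 interneuron genes (Sst), 1 of 6 neocortex genes (Rasgrf2, lower) and 0 of 6 oligodendrocyte, choroid plexus, meninges and thalamus genes each. Without library 21 the calls of Gal and Sst were lost (adjusted p = 0.309 and 0.054). Over all omissions of 1 library the call of Gal held in only 5 of 23, that of Sst in 19 of 23 and that of Rasgrf2 in 23 of 23.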

Additional observations from a re-analysis of the deposited data

Results flagged for a closer look

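Of 40 groups (10 members in 4 genotypes), 2 held a library far from the others, as chance gives in about 1 of 20. Dsp stood at 36.1 CPM in AppNLGF_p16KO 23, where the next library of the genotype held 16.3 CPM and the lowest 6.50 CPM. The gap was 0.669 of the range, above the limit of 0.625 for 6 libraries. In that library Prox1 (100.1 CPM), Zbtb20 (318 CPM), Plk5 and Dock10 were also highest of the genotype, while C1ql2 and Stxbp6 were lowest. Without it Dsp passed the threshold in AppNLGF_p16KO against AppNLGF and against WT by edgeR (log2 fold change -1.37 in both, adjusted p = 0.0164 and 0.0118). Of all genes, 4156 and 4456 were then called in these comparisons.

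Calb1 stood at 208 CPM in AppNLGF 14, where the next library held 151.5 CPM and the lowest 131 CPM. The gap was 0.733 of the range, above the limit of 0.71 for 5 libraries. In that library C1ql2 (90.6 CPM), Stxbp6 (134 CPM) and Trpc6 were also highest of the genotype, while Dsp, Zbtb20, Ahcyl2 and Dock10 were lowest. Without it Calb1 was higher with loss of p16 averaged over both App genotypes (log2 fold change 0.18, adjusted p = 0.0389, edgeR), and stood at -0.14 in AppNLGF against WT (adjusted p = 0.757), against -0.02 with it.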

How the results depend on the processing

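The main test called no member, so no call of a member could be lost or reverse. The alternatives called 6 values of members under other settings and 16 when 1 library was left out. Of the 80 fold changes (10 members, 8 comparisons), 4 took the other sign under some other setting and 20 when 1 library was left out. With DESeq2 the members called were 1 in AppNLGF_p16KO against AppNLGF, 3 in AppNLGF_p16KO against WT and 1 for p16 loss averaged, and with a sex term 1 for p16 loss averaged. Leaving out 1 library at a time gave 0 to 4 members in AppNLGF_p16KO against AppNLGF, 0 to 4 against WT and 0 to 2 for p16 loss averaged, and 0 to 0 in the other 5 comparisons. The 4 came without library 23 of AppNLGF_p16KO, and without libraries 21 and 22 no member was called in any comparison.

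Counts of all genes moved more. DESeq2 called 469 in p16KO against WT, 153 in AppNLGF against WT, 676 in AppNLGF_p16KO against AppNLGF, 101 against p16KO, 1 for the interaction and 285 for the averaged knock-in. With no count filter 17 were called in AppNLGF_p16KO against AppNLGF, 1072 against WT and 1364 for averaged p16 loss. Without libraries 21 and 22 these were 15, 150 and 474, with 18 against p16KO and 267 in p16KO against WT. Leaving out 1 library gave 7 (without p16KO 9) to 239 (without p16KO 8) in p16KO against WT, 47 to 72 in AppNLGF against WT, 2 (without AppNLGF 16) to 4156 (without AppNLGF_p16KO 23) in AppNLGF_p16KO against AppNLGF and 29 to 61 against p16KO. It gave 456 (without AppNLGF_p16KO 21) to 4456 (without 23) in AppNLGF_p16KO against WT, 762 (without AppNLGF 16) to 5117 (without AppNLGF_p16KO 23) for averaged p16 loss, 110 to 159 for the averaged knock-in and 0 to 0 for the interaction. The cause was not tested. Of the 8 list genes named as called in AppNLGF_p16KO against WT, Gfap and C1qa held under all 29 alternatives, and Egr1 under all but the omission of libraries 21 and 22.

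No paired analysis was possible because the library numbers run from 1 to 23 and no number is shared between genotypes. Each member held at least 340 reads in each library. The SE of Dsp, 0.40 on the log2 scale in AppNLGF_p16KO against WT, left only large differences of that gene detectable.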
